A study of Homo sapiens with 6 samples.

Results

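The genes described here are 40 genes of mitosis and the spindle: the mitotic cyclins and their kinase, the kinases that drive entry into and passage through mitosis, the spindle checkpoint, the kinetochore, mitotic kinesins and other spindle proteins, the machinery of anaphase, and genes of cytokinesis. They were taken by symbol from a table of 25370 gene rows. All 40 were found, and all 40 passed the filter on low counts. They were read in 6 RNA libraries of human neuroblastoma lines. BE2C cells with forced expression of LMO1 gave 2 libraries, BE2C cells carrying a vector control gave 2, unmodified BE2C cells gave 1 and unmodified Kelly cells gave 1. BE2C and Kelly are established lines with amplified MYCN, so every group carries that amplification, and LMO1 is a nuclear protein made of LIM domains that works through partners bound to DNA. The promoter that drove LMO1, and whether the modified cells were a clone or a pool, are not given in the sources used here. The study's title joins LMO1 with MYCN in the start and spread of neuroblastoma, and the design asks how the transcriptome differs when LMO1 is forced.

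Mitotic genes are transcribed in a wave that climbs through the end of the cell cycle and ends as cells divide. Cyclin B with CDK1 starts mitosis, kinetochores tie chromosomes to spindle microtubules, and the spindle checkpoint holds back the anaphase-promoting complex until every chromosome is attached. That complex then marks cyclin B and securin for destruction, separase opens cohesin, and the central spindle and contractile ring split the cell. The summed level of these messages is widely used as a measure of proliferation. In RNA from a whole culture, fewer cells in mitosis and less of these messages per cell cannot be told apart.

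Library depth ran from 18737591 to 59512958 counts, and no member had under 374 counts in any library (CENPA, in the first LMO1 library). The SE of the log2 fold change between LMO1 and vector was 0.101 for CENPA and 0.0934 for SPC25, against 0.0244 for TOP2A. LMO1 itself was at 6.55 and 5.85 CPM (counts scaled to library size by TMM) in the libraries labelled LMO1, at 1.05 and 0.926 CPM with vector, at 1.93 CPM in parental and at 94.1 CPM in Kelly cells. The Kelly library thus had 15.2 times the level reached by forced expression. Between LMO1 and vector it differed by 2.65 on the log2 scale (SE 0.27, edgeR adjusted p = 3.46e-11). MYCN was at 1558 to 1666 CPM in the BE2C libraries and at 2066 CPM in Kelly. Of 16 sympathoadrenal neuroblastoma markers, 15 were at 5 CPM or more in all libraries, and their summed level was 8856 to 10016 CPM. The 7 haematopoietic markers summed to 7.23 to 9.66 CPM, with CD3E and HBB at 0 throughout, the 6 endothelial markers to 2.61 to 4.60 CPM, and the 5 epithelial markers to 1.73 to 2.99 CPM. Schwann and melanocytic markers summed to 13.4 to 18.5 CPM in BE2C and 33.4 CPM in Kelly, and fibroblast and smooth muscle markers to 318 to 443 CPM in BE2C and 203 CPM in Kelly. The parental and Kelly libraries stood apart from the 4 modified ones in messages without a poly(A) tail. Replication-dependent histone genes summed to 11786 and 11852 CPM with LMO1, 9858 and 10014 CPM with vector, 377 CPM in parental and 117 CPM in Kelly. Of 52 histone genes tested, 43 were called higher with LMO1 (82.7%, against 15.9% of all genes) and 1 lower (1.92%, against 15.1%). The part of this difference in the LMO1 calls of the members was not tested. The 10 genes with the most counts held 8.31% to 8.57% of counts in the modified libraries, 4.78% in parental and 5.31% in Kelly. Where parental or Kelly is set against modified libraries, a difference of library set cannot be told apart from one of cells. Leaving the histone rows out of the scaling left the counts of members past 1.5-fold as they were, 20 in Kelly against parental and 6 in parental against vector.

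Members share a promoter pattern that their selection did not use. The cell-cycle homology region, or CHR, is the element through which the MuvB complex, with B-MYB and FOXM1 or with the DREAM repressors, times mitotic transcription, and the CCAAT motif binds NF-Y. RefSeq promoters (build GRCh38.p14, 250 bases before to 50 after the start) matched 34 of the 40 members. AURKA, TTK, BIRC5, BUB3, TPX2 and UBE2C had no entry. The core TTTGAA, searched on both strands, was in 25 of the 34 (73.5%), against 15.9% of 15546 genes of the count table with a promoter of the same length. CCAAT, searched on both strands, was in 28 (82.4%) against 41.9%, and both motifs were in 21 (61.8%) against 8.18%. In 16 members (47.1%, against 2.79% of all genes) a TTTGAA began within the last 50 bases before the start, and in 14 of these it read in the direction of the gene. A match is a run of letters and not a shown binding site.

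The following 100 bases end at the base before the annotated start and are written in the direction of the gene. Capitals mark TTTGAA and CCAAT, or their reverse complements TTCAAA and ATTGG, and the motifs overlap in MKI67 and CDCA8. The first 7 are members that were lower with LMO1 and hold both motifs there (CENPF, lower as well, has its TTTGAA after the start). KIF20A, also lower with LMO1 and the member with the largest difference in Kelly, has a pair of CCAAT motifs and no TTTGAA. NUF2, which was higher with LMO1, has neither in these bases and has its TTTGAA after the start. Of the other members called higher, ECT2 holds both motifs in the searched window, PTTG1 holds CCAAT alone, and TTK had no entry. CDK1, INCENP, KIF11, KIF23, HMMR and ESPL1, which were not called, also hold both motifs in the last 100 bases before a start. SPC25, also not called, holds CCAAT there and a TTTGAA that begins at -3 and runs across the start. The motif pair was thus not particular to members lower with LMO1.
CCNB2: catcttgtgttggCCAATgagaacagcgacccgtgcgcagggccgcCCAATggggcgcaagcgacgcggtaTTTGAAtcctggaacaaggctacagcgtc
PLK1: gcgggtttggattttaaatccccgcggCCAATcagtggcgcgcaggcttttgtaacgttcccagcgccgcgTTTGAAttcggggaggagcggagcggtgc
KIF4A: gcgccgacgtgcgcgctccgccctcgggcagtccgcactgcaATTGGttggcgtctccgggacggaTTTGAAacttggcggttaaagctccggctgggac
PRC1: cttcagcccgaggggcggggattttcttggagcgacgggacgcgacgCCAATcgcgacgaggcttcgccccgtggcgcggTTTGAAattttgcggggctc
MKI67: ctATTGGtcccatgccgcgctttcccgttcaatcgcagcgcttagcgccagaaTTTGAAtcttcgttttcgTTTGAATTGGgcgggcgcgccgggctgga
CDC20: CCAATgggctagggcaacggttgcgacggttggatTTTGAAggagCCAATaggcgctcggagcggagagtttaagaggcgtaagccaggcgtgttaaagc
CDCA8: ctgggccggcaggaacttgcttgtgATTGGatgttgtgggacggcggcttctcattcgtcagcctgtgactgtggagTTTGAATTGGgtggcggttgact
KIF20A: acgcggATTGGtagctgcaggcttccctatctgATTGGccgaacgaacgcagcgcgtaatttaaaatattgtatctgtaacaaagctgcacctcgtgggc
NUF2: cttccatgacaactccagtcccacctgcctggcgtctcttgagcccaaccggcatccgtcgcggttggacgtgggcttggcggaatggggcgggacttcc
In GRCh38.p14 these windows lie at chr15:59105046-59105145 (plus strand), chr16:23678789-23678888 (plus), chrX:70290004-70290103 (plus), chr15:90994536-90994635 (minus) and chr10:128126424-128126523 (minus). Those of CDC20, CDCA8, KIF20A and NUF2 lie on the plus strand at chr1:43358881-43358980, chr1:37692416-37692515, chr5:138179012-138179111 and chr1:163321854-163321953. The counts were made on hg19, so these positions serve for the sequences alone.

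**Figure D1:**
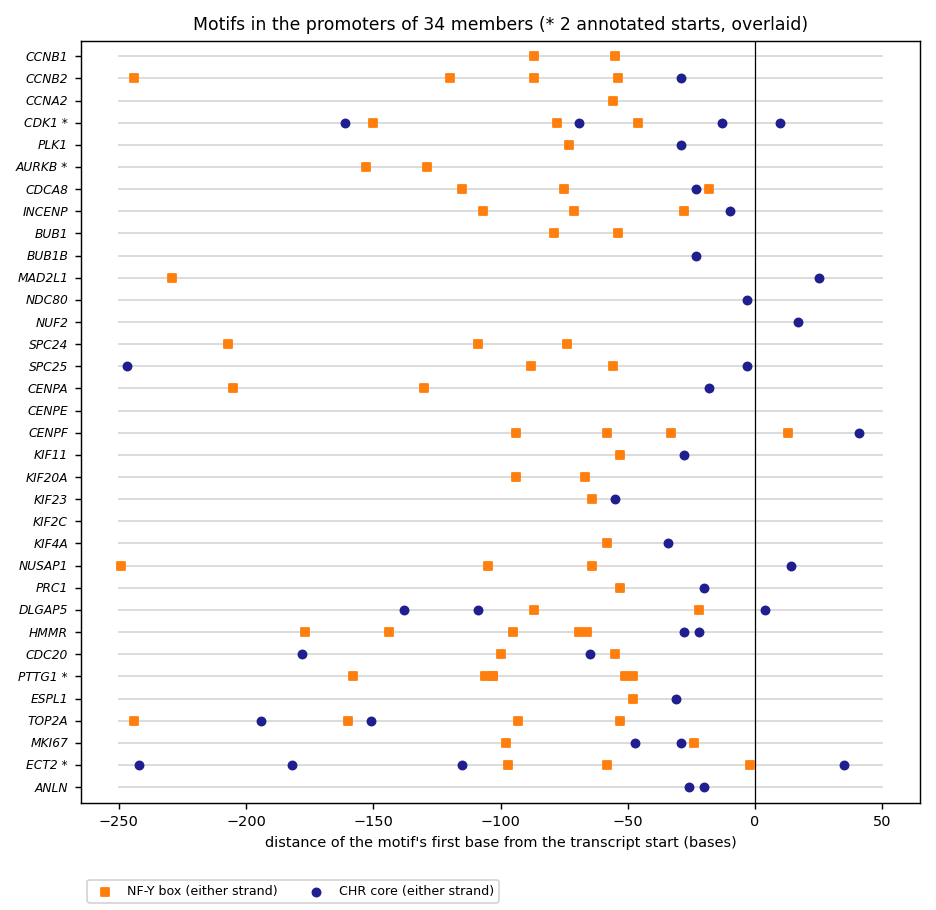
Position of the CHR core motif (circles) and the NF-Y box, the CCAAT motif (squares), on either strand in the promoters of 34 members, as the distance in bases of the motif's leftmost base from the transcript start; members marked * have 2 annotated starts, overlaid. A CHR core begins within the last 50 bases before the start in 16 members.

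Forced LMO1 left the level of mitotic messages nearly where the vector control had it. The 40 genes summed to 6531 and 6589 CPM with LMO1 and to 6734 and 6789 CPM with vector, a ratio of 0.97. Single members differed by log2 values from -0.25 (CDC20) to 0.18 (TTK). By edgeR, 13 members were called at an adjusted p below 0.05, 4 higher and 9 lower with LMO1, which is 32.5% of the 40, where 31% of all 15480 genes tested were called. By direction, 10% of members were called higher against 15.9% of all genes, and 22.5% lower against 15.1%. With total-count scaling the split of calls was 7 higher and 7 lower. The median log2 fold change of the members was -0.03, and that of all genes tested was 0.000832. The LMO1 libraries were both below the vector libraries for 15 members (37.5%, background 32.4%) and both above for 8 (20%, background 31.3%). The farthest member was 1.19-fold apart. None of the 40 reached 1.2-fold in this fit of 4 libraries, whereas 19.2% of all genes were called and at least 1.2-fold apart. Without vector replicate 2, CDC20 (log2 -0.35) and PLK1 (-0.27) passed 1.2-fold. Without vector replicate 1 they were at -0.14 and -0.16. On all 4 libraries, no member with an unadjusted p below 0.05 was at least 1.2-fold apart by edgeR, limma-voom or DESeq2. Nothing in the labels tells whether replicate libraries were grown separately. The p-values then measure only the spread between libraries, which may be technical.

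**Figure D2:**
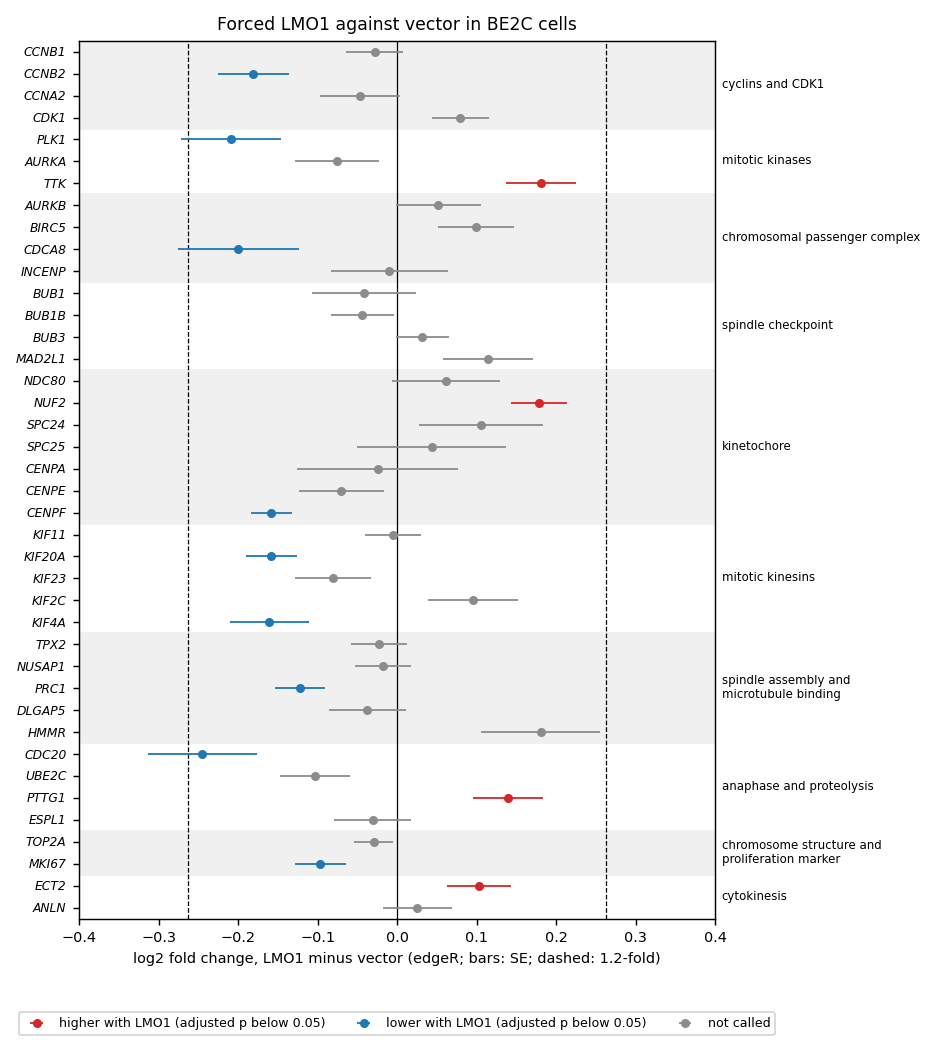
Log2 fold change (LMO1 minus vector, edgeR) of the 40 members with SE as bars, 2 libraries a group, coloured by call at an adjusted p below 0.05; dashed lines mark 1.2-fold. All points lie between -0.25 and 0.18, inside the dashed lines, with 4 called higher and 9 called lower.

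Among the cyclins, CCNB2 was at 119.7 and 131 CPM with LMO1 and at 141 and 145 CPM with vector, groups that did not overlap. It fell by 0.18 on the log2 scale (SE 0.0443, edgeR adjusted p = 0.00121), and without LMO1 replicate 1 the value was -0.12 (adjusted p = 0.113). CCNB1, the main mitotic cyclin, was at 198 and 201 CPM against 204 and 206 CPM (log2 -0.03, SE 0.0362, edgeR adjusted p = 0.606). CDK1, the kinase that both cyclins activate, was at 220.4 and 213 CPM with LMO1 and at 209 and 204 CPM with vector. Its log2 value of 0.08 (SE 0.0362) missed the threshold by edgeR (adjusted p = 0.0913) and passed it with total-count scaling (0.0234) and with a filter of 5 CPM in 2 libraries (0.031). CCNA2, the cyclin of S phase and early mitosis, had overlapping groups (log2 -0.05, edgeR adjusted p = 0.529).

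Of 3 mitotic kinases, PLK1 fell and TTK rose. PLK1, which acts in mitotic entry, centrosome maturation and cytokinesis, was at 53.9 and 57.8 CPM with LMO1 and at 67.5 and 62.5 CPM with vector, without overlap. It fell by 0.21 (SE 0.063, edgeR adjusted p = 0.00874), but with LMO1 replicate 1 left out the value was -0.17 (adjusted p = 0.134), and with vector replicate 1 left out it was -0.16 (adjusted p = 0.166). DESeq2 gave PLK1 an adjusted p of 0.0556. Without LMO1 replicate 2 the PLK1 value was -0.26, and without vector replicate 2 it was -0.27. TTK, also known as MPS1, which starts checkpoint signalling at kinetochores, was at 125 and 126 CPM against 110.2 and 112 CPM. It rose by 0.18 (SE 0.0444, edgeR adjusted p = 0.00121), a call that held in all 12 alternatives. AURKA, the centrosome kinase, was at 81.9 and 86.5 CPM against 85.9 and 92.4 CPM, with overlap (log2 -0.08, edgeR adjusted p = 0.298).

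In the chromosomal passenger complex, which corrects faulty attachments, CDCA8 (borealin) was at 35 and 35.2 CPM with LMO1 and at 39.1 and 41.8 CPM with vector. It fell by 0.20 (SE 0.0758, edgeR adjusted p = 0.0393). Leaving out LMO1 replicate 1, LMO1 replicate 2 or vector replicate 2 ended that call (adjusted p = 0.0738, 0.072 and 0.284). So did total-count scaling (0.0818), the 5 CPM filter (0.0534), DESeq2 (0.157) and a fit of all 6 libraries (0.0619), which makes 7 of 12 alternatives. BIRC5 (survivin) was at 104 and 105 CPM against 98.9 and 97.1 CPM (log2 0.10, SE 0.0476, edgeR adjusted p = 0.11, and 0.0399 with total-count scaling). AURKB, the kinase of the complex, and INCENP, its scaffold, had overlapping groups, with log2 values of 0.05 and -0.01. None of the 4 checkpoint genes was called by edgeR. BUB1B, which encodes the checkpoint protein BUBR1, was at 159 and 163 CPM with LMO1 and at 162 and 171 CPM with vector (log2 -0.04, SE 0.0399, edgeR adjusted p = 0.444). Log2 values were -0.04 for BUB1, 0.03 for BUB3 and 0.11 for MAD2L1, the checkpoint protein that binds CDC20.

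Of the 7 kinetochore genes, 1 rose and 1 fell. NUF2, a subunit of the microtubule-binding NDC80 complex, was at 229 and 231 CPM with LMO1 and at 203 and 205 CPM with vector. It rose by 0.18 (SE 0.0353, edgeR adjusted p = 7.59e-05). The other subunits, NDC80, SPC24 and SPC25, had log2 values of 0.06, 0.11 and 0.04, all with overlapping groups, and the difference between NUF2 and its partners was not tested. CENPF, a large protein of the outer kinetochore, was at 711 and 718 CPM against 803 and 800 CPM and fell by 0.16 (SE 0.0257, edgeR adjusted p = 2.71e-06). CENPA, the centromeric histone, and CENPE, a kinetochore motor, had log2 values of -0.02 and -0.07. Calls for NUF2 and CENPF held in all 12 alternatives.

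Of 5 kinesins, 2 fell. KIF20A, a motor of the central spindle, was at 279 and 287 CPM with LMO1 and at 319 and 315 CPM with vector, and fell by 0.16 (SE 0.0322, edgeR adjusted p = 0.000117, called in all 12 alternatives). Its row shares 68 exonic bases with CDC23 on the opposite strand. KIF4A, a chromosome-bound motor, was at 86.5 and 92.4 CPM against 102 and 99.3 CPM and fell by 0.16 (SE 0.05, edgeR adjusted p = 0.0111). Leaving out LMO1 replicate 1 gave -0.12 (adjusted p = 0.219), and leaving out vector replicate 1 gave -0.14 (adjusted p = 0.0998). DESeq2 gave KIF4A an adjusted p of 0.0658. Its near-identical copy KIF4B held 0 to 10 counts. KIF11, the motor that separates spindle poles, gave -0.01, KIF23 of the central spindle -0.08 and the depolymerase KIF2C 0.10.

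Among spindle proteins, PRC1, which bundles the central spindle, was at 311 and 317 CPM with LMO1 and at 339.9 and 347 CPM with vector. It fell by 0.12 (SE 0.0312, edgeR adjusted p = 0.0019), with -0.11 (adjusted p = 0.0599) without vector replicate 2. TPX2, NUSAP1 and DLGAP5, which build and stabilise spindle microtubules, gave -0.02, -0.02 and -0.04. HMMR was at 44.9 and 42.1 CPM against 36.9 and 40 CPM (log2 0.18, SE 0.0744, edgeR adjusted p = 0.06).

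At anaphase, CDC20, the activator of the anaphase-promoting complex, and PTTG1 (securin), one of its substrates, were called in opposite directions. CDC20 was at 47.9 and 48.4 CPM with LMO1 and at 61.5 and 53.4 CPM with vector. It fell by 0.25 (SE 0.0687, edgeR adjusted p = 0.00471), and without vector replicate 1 the value was -0.14 (adjusted p = 0.244). Without vector replicate 2 the CDC20 value was -0.35. PTTG1 was at 122 and 124 CPM against 112 and 113 CPM and rose by 0.14 (SE 0.0444, edgeR adjusted p = 0.0133). Its call was lost without any 1 of the 4 libraries, with adjusted p of 0.0804, 0.142, 0.0935 and 0.0772 without LMO1 replicates 1 and 2 and vector replicates 1 and 2, and with DESeq2 (0.0833). The copies PTTG2 and PTTG3P had 0 counts in every library. UBE2C, the ubiquitin-conjugating enzyme of the complex, gave -0.10 (edgeR adjusted p = 0.0661), and ESPL1 (separase) -0.03.

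MKI67, the gene of the proliferation antigen Ki-67, was at 287 and 279 CPM with LMO1 and at 304 and 304 CPM with vector. It fell by 0.10 (SE 0.0324, edgeR adjusted p = 0.0185), with adjusted p of 0.0879, 0.124 and 0.101 without LMO1 replicate 2, vector replicate 1 and vector replicate 2. The MKI67 call was also lost with total-count scaling (-0.07, adjusted p = 0.0981), with the 5 CPM filter (0.0507) and with DESeq2 (0.067). TOP2A, the topoisomerase that untangles sister chromatids and the member with the most counts, was at 1018 and 1029 CPM against 1035 and 1065 CPM (log2 -0.03, SE 0.0244, edgeR adjusted p = 0.389). ECT2, which activates RhoA at the division plane, was at 155 and 158 CPM with LMO1 and at 147 and 145 CPM with vector. It rose by 0.10 (SE 0.0402, edgeR adjusted p = 0.0468). Its call was lost without each library in turn, with adjusted p of 0.106 and 0.245 without LMO1 replicates 1 and 2 and 0.141 and 0.266 without vector replicates 1 and 2, and with the replicate block (0.0508). Median-of-ratios scaling (0.0528), no filter on low counts (0.0848), DESeq2 (0.187) and the fit of all 6 libraries (0.0596) ended the ECT2 call too. ANLN, the ring protein anillin, gave 0.03.

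**Figure D3:**
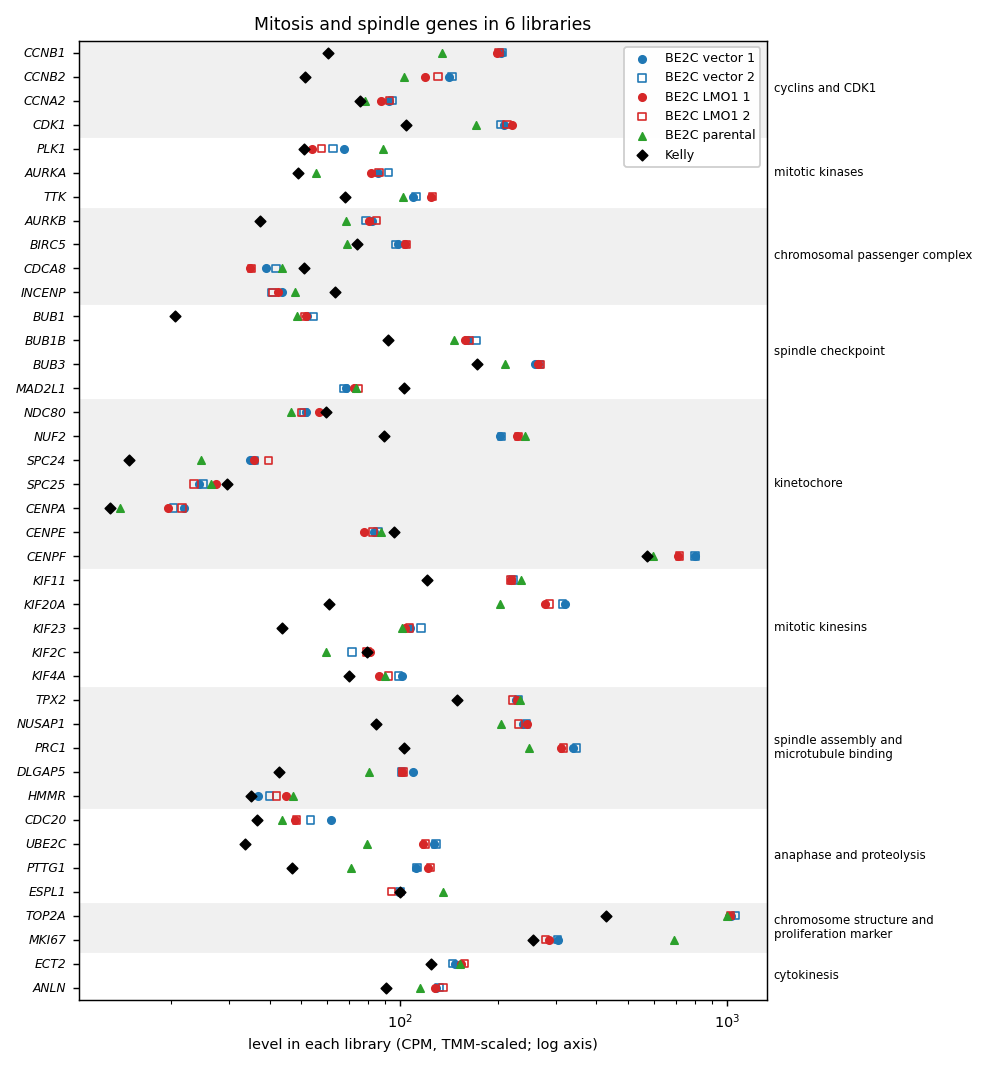
Level of each member in each of the 6 libraries (CPM scaled by TMM, log axis), ordered by role; red and blue points are LMO1 and vector libraries, green triangles the parental and black diamonds the Kelly library. LMO1 and vector points nearly coincide, and Kelly is the lowest library for 31 of 40 members.

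Kelly cells held less of most mitotic messages than BE2C cells did. The members summed to 3852 CPM in Kelly and to 6269 CPM in parental BE2C, a ratio of 1.63 in favour of BE2C. Kelly was below all 5 BE2C libraries for 31 of 40 members (77.5%, against 37.9% of the 12817 genes with 5 CPM in any library) and above all 5 for 6 (against 39.7%). With 1 library of each line there is no replicate check and no test, and ratios were taken from CPM with 1 added. Against parental BE2C, 20 members were at least 1.5-fold lower in Kelly (50% of members, against 24.5% of all genes measured) and 0 were at least 1.5-fold higher (against 25.5%). At 2-fold, 10 were lower (25%, background 13.4%) and 0 higher (background 15.3%). The median log2 ratio was -0.58, where that of all genes was -0.03. PTTG1, with a log2 ratio of -0.588, was just past 1.5-fold and counted, and TTK, with -0.582, just missed it. Against the vector mean, 23 were lower by that fold (background 25.3%) and 1, MAD2L1, higher (32.8%). The vector libraries held 9858 and 10014 CPM of histone messages and Kelly 117 CPM, and the part of that gap in these ratios was not tested.

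The largest difference was in KIF20A, at 60.7 CPM in Kelly against 203 CPM in parental cells, a ratio of 0.299 (95% exact interval 0.287 to 0.31, for counting error alone). The same gene was at 279 to 319 CPM in the 4 modified libraries, so Kelly was the lowest of the 6. NUF2 was at 89.4 CPM in Kelly, 243 CPM in parental and 203 to 231 CPM in modified cells (ratio to parental 0.369, interval 0.357 to 0.381). MKI67 was at 255 CPM in Kelly against 688 CPM in parental cells (ratio 0.371), but the parental library was the high one here. Against the vector mean the log2 value for MKI67 was -0.25. NUSAP1, which stabilises spindle microtubules, was at 84.5 CPM in Kelly, 205 CPM in parental, 244 and 231 CPM in LMO1 and 239 and 244 CPM in vector cells (ratio to parental 0.413). PRC1 was at 103 CPM against 248 CPM (ratio 0.415).

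Of the cyclins and their kinase, CCNB1 was at 60.3 CPM in the Kelly library and at 135 CPM in the parental one (log2 -1.15), CCNB2 at 51.2 and 103 CPM (-0.99) and CDK1 at 105 and 172 CPM (-0.71). CCNA2 differed little from parental, at 75.7 and 78.3 CPM. TOP2A was at 426 and 1001 CPM (-1.23), UBE2C at 33.6 and 79.5 CPM (-1.22), and BUB1 at 20.6 and 48.4 CPM (-1.19). PLK1 was at 50.8 and 89.2 CPM (-0.80), and BUB1B at 92.4 and 146 CPM (-0.66). AURKA was at 48.8 and 55.7 CPM, a log2 ratio of -0.19 that lay inside 1.5-fold, although both were under the 81.9 to 92.4 CPM of modified cells.

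The 8 members that were higher in Kelly than in parental cells encode proteins of the kinetochore, checkpoint and passenger complex, with the kinesin KIF2C. MAD2L1 was at 103 CPM in Kelly, 73.4 CPM in parental, 72.3 and 74.5 CPM in LMO1 and 68.7 and 67.7 CPM in vector cells (ratio to parental 1.4, interval 1.34 to 1.46). INCENP was at 63.4 CPM against 47.9 CPM in parental, 42.3 and 41 CPM in LMO1 and 43.6 and 40.7 CPM in vector cells, and CDCA8 at 51.1 CPM against 35 to 43.6 CPM. All of these were highest in Kelly. NDC80 was at 59.6 CPM against 46.7 CPM in parental, 56.6 and 50 CPM in LMO1 and 51.6 and 50.9 CPM in vector cells. For KIF2C, at 79.5 CPM, Kelly was above the parental library (59.6 CPM) and within the range of the modified ones (81.1 and 79.5 CPM with LMO1, 79.7 and 71.5 CPM with vector). SPC25, CENPE and BIRC5 had log2 ratios to parental of 0.16, 0.13 and 0.10.

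Members of the same complex took different places. Within the NDC80 complex, NUF2 and SPC24 were lower in Kelly than in any BE2C library, and NDC80 and SPC25 were higher than in any. The higher side was small and rests on 1 Kelly library. NDC80 was at 59.6 CPM against 56.6 CPM in the first LMO1 library, and SPC25 at 29.7 against 27.4 CPM. Genes of the passenger complex also differed in place, with AURKB at 37.4 CPM in Kelly against 68.4 CPM in parental cells, and CDCA8 and INCENP above all 5 BE2C libraries. Levels of different genes can be compared only per length. Per kilobase of merged exon (GENCODE 29), NUF2 was at 101 CPM in vector cells and NDC80 at 23.6 CPM, and in Kelly at 44.2 and 27.4 CPM. Over all members this scale ran from 9.83 CPM per kilobase (CENPE) to 182 (TOP2A) in vector cells. These lengths come from a later annotation than the counts.

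**Figure D4:**
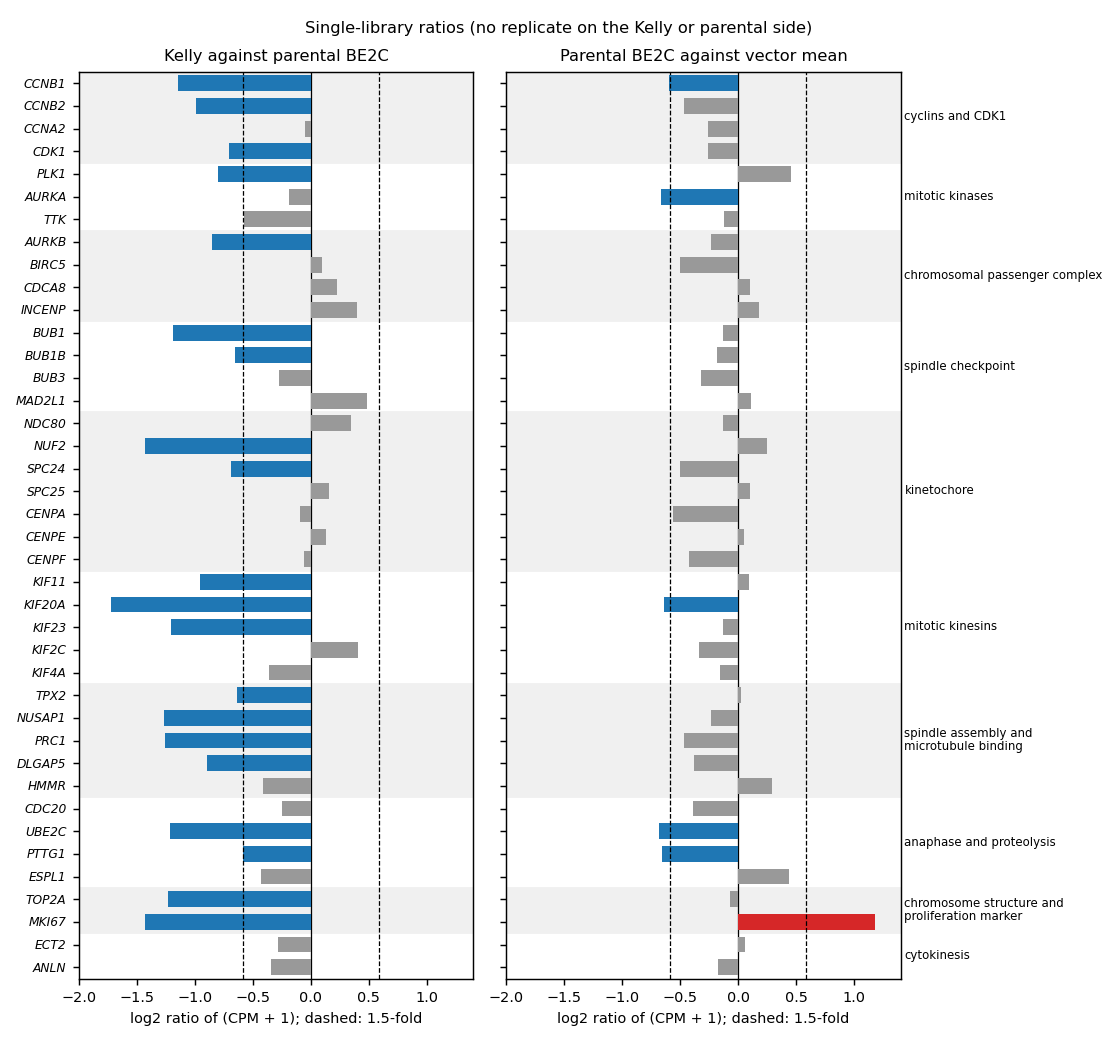
Log2 ratio of CPM with 1 added for each member, Kelly against parental BE2C on the left and parental BE2C against the vector mean on the right; dashed lines mark 1.5-fold and coloured bars lie past it. On the left 20 bars pass the line downwards and 0 upwards, and on the right 5 pass downwards and 1 (MKI67) upwards.

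Unmodified BE2C cells were then set against their vector control, as the same line without an added construct. Their library was the one BE2C library with few histone messages, so construct and library set cannot be told apart here. The parental library was below all 4 modified libraries for 26 members (65%, background 32.7%) and above all 4 for 10 (background 42%). At 1.5-fold, 5 members were lower (background 7.9%) and 1 higher (background 19%), which also passed 2-fold (background 8.79%), with a median log2 ratio of -0.18 against 0.05 for all genes. UBE2C was at 79.5 CPM against 128 and 129 CPM with vector (log2 -0.68) and 118 and 119.9 CPM with LMO1, AURKA at 55.7 CPM against 85.9 and 92.4 CPM (-0.67), and PTTG1 at 71 CPM against 112 and 113 CPM (-0.66). KIF20A followed with -0.64 and CCNB1 with -0.60. MKI67 went the other way, at 688 CPM against 304 and 304 CPM (1.18, or 2.26-fold). PLK1 (0.45), ESPL1 (0.43), HMMR (0.29) and NUF2 (0.25) came next. ESPL1 was at 135 CPM in parental, 100.4 and 94.5 CPM in LMO1, 99.7 and 100.2 CPM in vector and 100.5 CPM in Kelly cells, and HMMR was at 47.3 CPM in parental and 35.2 CPM in Kelly. Across the 40 members the log2 ratio of parental to vector had a Pearson correlation of 0.45 with the log2 of exon length (Spearman 0.398), where the ratio of Kelly to parental gave 0.0477 and that of LMO1 to vector -0.127. MKI67 has the longest exons of the 40, at 12.7 kb, and PTTG1 and UBE2C have the shortest, at 1.15 and 1.29 kb. The part of length, or of the differing histone content, in these ratios was not tested.

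For the 13 members called with LMO1, the parental library was beyond the vector side of the 4 modified libraries in 5, beyond the LMO1 side in 6, and within their range in 2. Over the 12817 genes with 5 CPM in any library, it was below all 4 for 32.7% and above all 4 for 42%. The split by side was not counted over all called genes.

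The rest of the mitotic programme was read from 6 lists of other genes, against the 15.9% of all genes tested that were called higher with LMO1 and the 15.1% called lower. Of 40 further kinetochore and centromere genes tested, 2 were higher (5%) and 3 lower (7.5%) with LMO1, with a median log2 fold change of 0.00. CENPP, a subunit of the constitutive centromere network, was at 7.75 and 8.58 CPM with LMO1 and 11.2 and 11.8 CPM with vector. It fell by 0.49 (SE 0.144, edgeR adjusted p = 0.00729), CENPT by 0.18 and CENPB, which binds centromeric repeats, by 0.14. Of 45 further spindle, centrosome and cytokinesis genes, 5 were higher (11.1%) and 9 lower (20%, median -0.04). CEP152, a centriole duplication protein, fell by 0.25 (SE 0.0493, edgeR adjusted p = 7.26e-05), KNSTRN, a kinetochore and spindle adaptor, fell by 0.23, and HAUS7, of the augmin complex, rose by 0.31 (46.7 and 49.8 CPM against 39 and 39.6 CPM).

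Of 17 genes of the anaphase-promoting complex, 1 was higher (5.88%) and 3 lower (17.6%), with a median of 0.00, where the shares of all genes were 15.9% and 15.1%. ANAPC5 fell by 0.19 and CDC26 by 0.48, and ANAPC16 rose by 0.19. Cohesin and condensin had 2 higher (9.52%) and 4 lower (19%) of 21 (median -0.02), with PDS5A, a cohesin regulator, down by a log2 value of -0.21, the cohesin subunit STAG2 by -0.15, and RAD21, the subunit that separase cuts, up by 0.18. Other kinases and phosphatases of mitotic entry had 6 higher (27.3%) and 1 lower (4.55%) of 22 (median -0.04). The phosphatase subunits PPP1CB and PPP1CC rose by 0.24 and 0.14, and CKS1B, a CDK-binding subunit, by 0.17.

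Regulators of mitotic transcription had 2 higher (11.8%) and 3 lower (17.6%) of 17 (median 0.01), against 15.9% and 15.1% of all genes. RB1, the retinoblastoma protein gene, rose by 0.28 (SE 0.0689, edgeR adjusted p = 0.00109), LIN52, a MuvB subunit, fell by 0.47 (SE 0.123, edgeR adjusted p = 0.00227) and E2F4 by 0.19. For comparison, 52 genes of DNA replication and its onset had 0 higher and 6 lower (11.5%, where 15.1% of all genes were lower, median -0.03). The 6 include the helicase subunits MCM7 (427 and 422 CPM against 505 and 495 CPM, log2 -0.23), MCM2 (-0.13) and MCM5 (-0.14).

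Against parental BE2C, the same lists were read in Kelly at 1.5-fold, where 24.5% of all genes were lower and 25.5% higher. Of 22 mitotic entry genes, 12 were lower and 0 higher (median log2 ratio -0.82). Of 45 spindle and centrosome genes, 21 were lower and 3 higher (-0.36), and of 39 kinetochore genes, 12 were lower and 2 higher (-0.36). The anaphase-promoting complex had 6 lower and 3 higher of 17 (-0.33), and DNA replication 21 lower and 5 higher of 52 (-0.41). Cohesin and condensin had 4 lower and 3 higher of 21 (-0.28), and regulators of mitotic transcription 4 lower and 5 higher of 17 (-0.04). CKS1B was at 80.7 CPM in Kelly against 209 CPM in parental cells, and STAG2 at 436 CPM against 275 CPM.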

How the data were processed

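RNA was sequenced from 6 libraries of neuroblastoma lines with a stranded total RNA kit, per the labels' protocols. Whether all 6 libraries were prepared alike was not tested. The deposited table holds raw counts of reads per gene symbol. TopHat2 2.0.6, HTSeq and hg19 are named in the submitters' processing notes, and the annotation and strand setting are not given in the sources used here, so overlapping and antisense genes could share reads. Library totals ran from 18737591 to 59512958 counts, and 3 counts, the limit that a count of 0 allows, are 0.0504 to 0.16 CPM (counting error only).

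The test of forced LMO1 used edgeR 4.0.16 (R 4.3.3) on those 4 libraries (TMM scaling, filterByExpr, quasi-likelihood F test, Benjamini-Hochberg over 15480 genes, call at an adjusted p below 0.05). SE is the fold change over the root of F. CPM were TMM-scaled over 6 libraries. Single-library ratios used 1 CPM added, a minimum of 5 CPM in one or the other library and a 1.5-fold limit, with 95% exact binomial intervals. Alternatives used DESeq2 1.42.0, limma 3.58.1, other scalings and filters, all 6 libraries, a replicate block and each library left out. Tests were run on simulated data first. Members and lists were chosen with earlier results of these data known. Full values were given for CCNB1, CDK1, PLK1, AURKA, BUB1B, TOP2A, MKI67, BIRC5, every called member, the 5 highest and 5 lowest in each single-library ratio, and up to 3 called genes of a list. Other members are named with their log2 values.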

Additional observations from a re-analysis of the deposited data

How the results depend on the processing

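The count of members called with LMO1, 13, was 7 with DESeq2 and 0 when at least 1.2-fold was also asked. In the other alternatives that kept all 4 libraries it ran from 11 to 14, where 23.5% to 36.1% of all genes were called. With 1 library left out, fewer members and a smaller share of all genes were called. The members' median log2 fold change then ran from -0.03 to -0.01. Over all genes, DESeq2 called 2970 (19.2%) where edgeR called 4797 (31%), and by edgeR 19.2% were called and at least 1.2-fold apart. With the replicate number as a block, 12 members were called (31.3% of all genes), all among the 13, and ECT2 was the call that was lost. Replicate differences of the LMO1 and vector groups correlated at -0.0213 across genes, which does not show whether the numbers pair libraries across groups. Of 228 comparisons of a named member under an alternative, 188 kept direction and call, 36 lost a call, 4 gained one and 0 reversed. The cause was not tested. In Kelly against parental cells, 10 members passed 2-fold, and the median log2 ratio was -0.55 with 5 CPM added, -0.56 with total-count scaling and -0.65 against the vector mean. In parental cells against vector, 1 member passed 2-fold, and the median was -0.23 with median-of-ratios scaling and -0.20 to -0.17 with 1 vector library left out. Leaving out histone rows was chosen after the data were seen. With 2 libraries a group, and 1 each for parental and Kelly, differences between lines have no measured error.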

Other observations

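Members with and without the TTTGAA core in their promoter were set side by side after the values were seen. Over all genes tested, 15.9% were called higher and 15.1% lower with LMO1. In Kelly, 37.9% of the 12817 genes with 5 CPM in any library were below all 5 BE2C libraries. The median log2 ratio of Kelly to parental over all genes measured was -0.03. Of the 25 members with it, 2 were higher and 8 lower with LMO1 (median log2 fold change -0.03), and 19 were below all 5 BE2C libraries in Kelly (median log2 ratio to parental -0.43). Of the 9 without it in the window, which include CCNB1, KIF20A and PTTG1, 1 was higher and 1 lower with LMO1 (median -0.03), and 7 were below all 5 in Kelly (median -0.69). The 6 members without CCAAT in the window, ANLN, BUB1B, CENPE, KIF2C, NDC80 and NUF2, had a median log2 ratio of Kelly to parental of -0.11, against -0.70 in the 28 with it. These are descriptions of few genes, and no difference between the groups was tested.

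Some neighbouring rows that share exonic bases with a member on the opposite strand held many counts. CDC23, which overlaps KIF20A, had 4009 counts in Kelly, where KIF20A had 3619. KIAA0895, which overlaps ANLN by 78 bases, had 2922 counts in Kelly and 800 in parental cells, and EXOSC9, which overlaps CCNA2 by 144 bases, had 2572 and 1525. Antisense rows were low, with 0 to 8 counts for HMMR-AS1 and 32 to 90 for PRC1-AS1.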
